A study of Mus musculus with 6 samples.

Results

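The genes described here encode the respiratory chain and ATP synthase, the mitochondrial ribosome and the machinery that imports proteins into mitochondria. They were taken as all probe sets with exactly 1 gene symbol in the platform annotation that began with Nduf, Sdha to Sdhd, Uqcr, Cox, Atp5, Mrpl, Mrps, Timm or Tomm, followed by a digit for Cox, Mrpl and Mrps. This gave 45 of 7486 genes, each with 1 probe set. Probe sets shared by Mrpl30 with Gm6238 and by Tomm5 with Gm8069 carried several symbols and were left out. The 45 genes are the part of these families with a probe set in the table used here: 43 were placed by RefSeq on chromosomes 1 to 4, and Mrpl23-ps1 and Mrpl48-ps, whose symbols are those of pseudogenes, were not placed. Genes called measured below are those with a probe set of exactly 1 symbol in that table.

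RNA was measured in Melan-a, an immortal line of pigmented melanocytes from female C57BL/6 mice, grown with 200 nM of the phorbol ester TPA in both groups. Cells received 50 pmol of a small interfering RNA against Dicer (siDicer), the enzyme that cuts microRNA precursors, or of a control (siScr), and are labelled 24 hours. Each group had 3 Clariom D arrays, from cells at passages 47, 54 and 56, and each passage gave 1 array per group. The replicates are cultures of this 1 line that the labels set apart by passage, and RNA integrity numbers, given below, also differed. In the paired fit, p-values rest in part on how far the siDicer minus siScr difference varied between the 3 pairs. The spread between passages enters only the fit without the pairing. In both fits limma also draws the variance of each probe set towards a value pooled over all probe sets tested. The SEs, intervals and p-values below are thus not from the spread of a single gene alone. Neither fit covers other lines, and Dicer1 itself was not analysed here.

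Levels are log2 signals, so that 1 unit is a doubling, and they do not rank the RNA amounts of different genes. Set against the background level below, they serve only as a rough guide to signal over background. Probe sets of 426 genes for smell and pheromone receptors, which served as a background level or gauge, had a 95th percentile of 4.22, and all 45 genes lay above it in their mean, as did 57.8% of all probe sets. The melanocyte genes Tyrp1, Pax3, Slc24a5 and Mlph lay far above it, at group means from 10.2 to 12.9, and 1 of 5 measured melanocyte markers, Mreg, rose in siDicer, though not without the pairing. None of 6 fibroblast, 5 keratinocyte or 7 immune markers passed the threshold in limma. At an unadjusted p under 0.05 there were 2, 0 and 3, or 33.3%, 0% and 42.9%, against 15.7% of all probe sets. The 2 were Postn and Col5a1, higher in siDicer, though 4 of the 6 fibroblast markers had a lower mean there. The 3 were Fcer1g, C1qa and C1qb, lower in siDicer, as were 5 of the 7 immune markers in their mean. In their mean, 5 of the fibroblast, 2 of the keratinocyte and 5 of the immune markers lay above the gauge. Among them were Col5a1, at 7.29 in siDicer and 7.10 in siScr, and C1qa, at 5.23 and 5.52. The leukocyte marker Ptprc lay below the gauge at 2.84 and 2.85.

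Respiratory complexes I to IV pass electrons from NADH and succinate to oxygen and, at I, III and IV, pump protons across the inner mitochondrial membrane. Complex V lets the protons back to make ATP. Most of their subunits are made from nuclear genes and carried in through the TOM channel of the outer and the TIM complexes of the inner membrane, while a few are encoded by mitochondrial DNA and made on the mitochondrial ribosome. In melanocytes, mitochondria also touch melanosomes, the organelles that hold pigment.

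No gene of the 45 passed an adjusted p of 0.05 in the comparison of siDicer with siScr, paired by passage (limma, Benjamini-Hochberg over all 16383 probe sets). The inner membrane channel gene Timm17a came nearest, 1.24-fold lower in siDicer (adjusted p = 0.0816), followed by the complex III gene Uqcrh, 1.18-fold higher (adjusted p = 0.136). Over all probe sets 163 passed, or 0.995%, with 0.757% higher and 0.238% lower in siDicer. At an adjusted p under 0.1, Timm17a alone of the 45 passed, against 2.31% of all probe sets. At an unadjusted p under 0.05 there were 3 genes, Timm17a, Uqcrh and Mrpl41, against 15.7% of all probe sets. Without the pairing 0 of the 45 passed the adjusted threshold in limma as well, while 0.214% of all probe sets did. At an unadjusted p under 0.05 without the pairing there were again 3 of the 45, against 1667 of all 16383 probe sets.

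Differences were small. In 34 of the 45 genes the 2 group means lay less than 0.1 log2 units apart, and the whole range ran from -0.31 to 0.24. The 95% interval of the difference lay within 0.5 log2 units of 0, a 1.41-fold change, for all 45 genes, as it did for 96.5% of the 5148 probe sets with 1 symbol above the gauge. The outermost bounds of these intervals were -0.46 and 0.38. The median difference was -0.01 over the 45 genes and -0.01 over all probe sets. Of the 45 genes 20 lay above and 25 below 0, against 44.4% of all probe sets above 0. In arrays of whole cultures, less RNA per cell and fewer cells of a kind cannot be told apart.

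**Figure D1:**
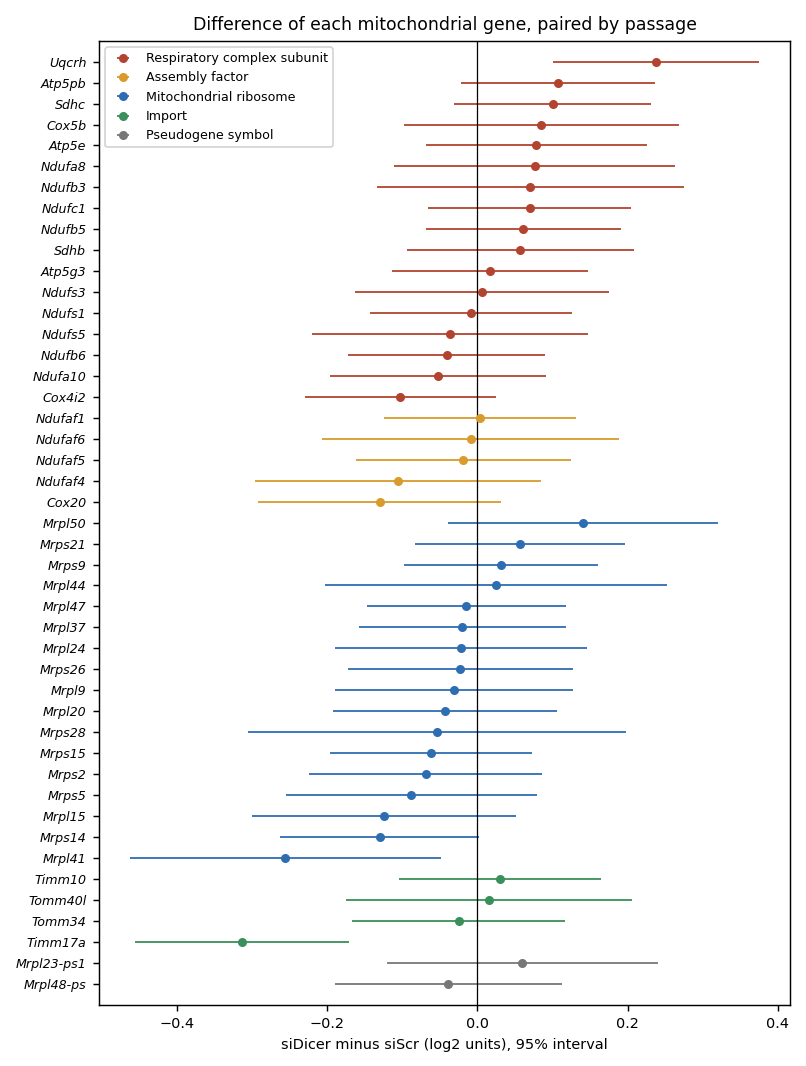
Difference between siDicer and siScr in log2 units for each of the 45 genes, with points for the paired estimate and bars for its 95% interval, grouped by role. Intervals of Timm17a, Mrpl41 and Uqcrh leave out 0, and none of the 45 genes passed after adjustment over all probe sets.

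Among the subunits of complexes I to V, 12 of 17 lay above 0, against 44.4% of all probe sets, with a median of 0.06, and 0 passed. Complex I, the NADH dehydrogenase, had 5 of 9 subunits above 0. Its core subunits were Ndufs1, which holds iron-sulfur clusters, with a difference of -0.01, and Ndufs3, with 0.01. Its 7 accessory subunits ran from -0.05 for Ndufa10 to 0.08 for Ndufa8. Ndufc1 and Ndufb5 were higher in siDicer in all 3 pairs, by 0.07 and 0.06 on average (adjusted p = 0.587 and 0.614). Ndufb3 had a difference of 0.07 that came from passage 56, where siDicer was 0.30 higher, while the pair difference at passage 47 was -0.10. Ndufb6 and Ndufs5 each differed by -0.04.

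Both measured subunits of complex II, succinate dehydrogenase, lay above 0. Sdhc, a membrane anchor of the complex, had signals of 8.81, 8.97 and 8.89 in siDicer at passages 47, 54 and 56 and of 8.74, 8.89 and 8.74 in siScr. It was higher in siDicer within every pair, but the groups overlapped, and the difference was 0.10 ± 0.05 (SE, adjusted p = 0.429). Sdhb, the iron-sulfur subunit, differed by 0.06, mostly through passage 47, where siDicer was 0.18 higher.

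Uqcrh, the hinge protein of complex III, which sits next to cytochrome c1, was the only gene of that complex among the 45. It was at 8.83, 8.98 and 8.94 in siDicer and at 8.52, 8.79 and 8.72 in siScr, at passages 47, 54 and 56. Every siDicer array was above every siScr array, with pair differences of 0.31, 0.19 and 0.22. The mean difference was 0.24 ± 0.06 (SE), with a 95% interval from 0.10 to 0.38. Uqcrh was the only one of the 45 genes whose groups were apart with siDicer higher.

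Of complex IV, cytochrome c oxidase, Cox5b, a structural subunit, had a difference of 0.09 (adjusted p = 0.622) and was higher in siDicer in 2 of 3 pairs. Cox4i2, a form of subunit 4 known from lung and from cells at low oxygen, was at 6.04, 5.97 and 5.99 in siDicer and at 6.15, 6.07 and 6.09 in siScr. All its siDicer arrays were below all siScr arrays, by -0.11, -0.10 and -0.10 within the pairs, yet the difference of -0.10 ± 0.05 (SE) had an adjusted p of 0.404.

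All 3 measured subunits of complex V lay above 0. Atp5f1, named Atp5pb in the RefSeq table, codes for subunit b of the stalk that holds the catalytic head. It was at 8.63, 8.93 and 8.81 in siDicer and at 8.51, 8.85 and 8.69 in siScr. Passages differed more than treatments here: within every pair siDicer was higher, by 0.12, 0.08 and 0.12, while the passage means spanned 0.32. The difference of 0.11 ± 0.05 (SE) did not pass (adjusted p = 0.391). Atp5e, the epsilon subunit, differed by 0.08 (adjusted p = 0.573) and Atp5g3, which makes subunit c of the rotor ring, by 0.02.

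Of 5 factors that build the complexes 0 passed and 4 were below 0, of which Ndufaf5 and Ndufaf6 lay close to it at -0.02 and -0.01. Ndufaf1, an early complex I assembly factor, was at 0.0034. Ndufaf4 had a difference of -0.11 (adjusted p = 0.557), from pair differences of 0.08, -0.28 and -0.11, and without passage 54 it was at -0.017. Cox20, which helps to mature a mitochondrially encoded subunit of complex IV, differed by -0.13 ± 0.07 (SE, adjusted p = 0.406), with pair differences of -0.14, 0.004 and -0.25.

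**Figure D2:**
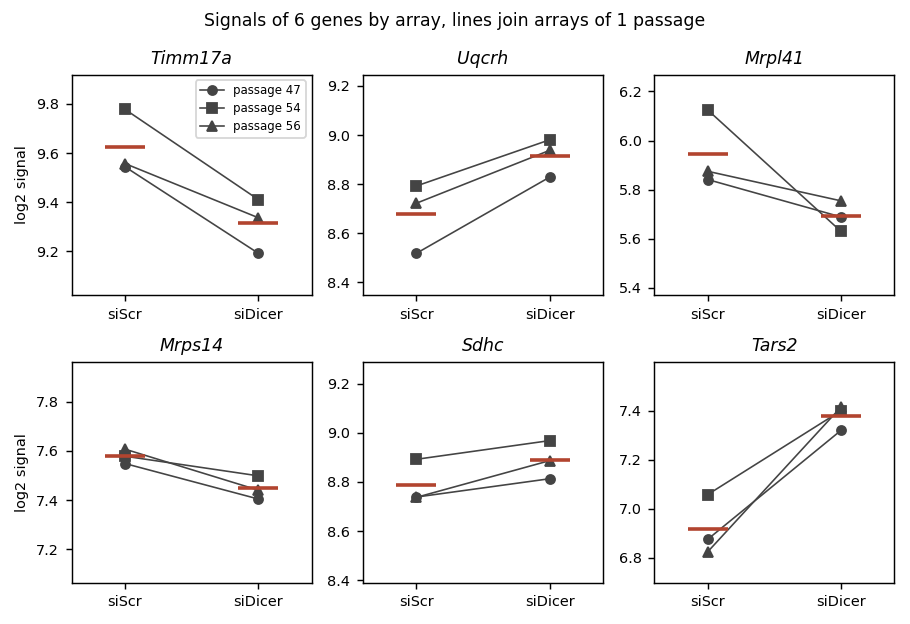
Log2 signals of Timm17a, Uqcrh, Mrpl41, Mrps14, Sdhc and Tars2 in each array, with lines that join the siScr and siDicer arrays of 1 passage and red bars at the group means; every panel spans the same 0.9 log2 units. Lines run the same way in all 3 pairs of each gene, and the groups overlap in Sdhc.

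Proteins of the mitochondrial ribosome lay mostly below 0, 13 of 17 with a median of -0.03, and 0 passed. The other 4 of 17 lay above 0, against 44.4% of all probe sets. Of the large subunit 7 of 9 genes were below 0. Mrpl41 had the second lowest difference of the 45 genes. Its signals were 5.69, 5.63 and 5.75 in siDicer and 5.84, 6.12 and 5.87 in siScr, at passages 47, 54 and 56. The groups did not overlap, but the pair of passage 54 differed by -0.50 and the others by -0.15 and -0.12. The mean difference was -0.26 ± 0.09 (SE, adjusted p = 0.240), and without passage 54 it was -0.14. Mrpl50 had the highest value among ribosomal genes, 0.14 ± 0.07 (SE, adjusted p = 0.415), from pair differences of 0.26, -0.04 and 0.20. Mrpl15 was at -0.12 (adjusted p = 0.457), with 0.05 at passage 47 and -0.24 and -0.19 at the later passages. Mrpl20, Mrpl9, Mrpl37, Mrpl24 and Mrpl47 lay between -0.04 and -0.01, and Mrpl44 at 0.03 with a difference of 0.30 at passage 47 alone.

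Of the small subunit 6 of 8 genes were below 0. Mrps14 was at 7.40, 7.50 and 7.44 in siDicer and at 7.55, 7.58 and 7.61 in siScr. All siDicer arrays were below all siScr arrays, and the passages differed little, by 0.06. Its difference was -0.13 ± 0.05 (SE, adjusted p = 0.322). Mrps5 at -0.09, Mrps2 at -0.07, Mrps15 at -0.06, Mrps28 at -0.05 and Mrps26 at -0.02 followed, with adjusted p from 0.577 to 0.887. Mrps21 and Mrps9 lay at 0.06 and 0.03 and were higher in siDicer in all 3 pairs. Mrps28 had the widest interval of all, since siDicer was 0.20 higher at passage 47 and lower at passage 54, with -0.35. The pseudogene symbols Mrpl23-ps1 and Mrpl48-ps had differences of 0.06 and -0.04; signal from their parent genes on these probe sets was not tested.

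Of 4 import genes, Timm17a stood apart. It encodes a form of the channel protein of the TIM23 complex, through which proteins with a presequence cross the inner membrane. Its signals were 9.19, 9.41 and 9.34 in siDicer and 9.54, 9.78 and 9.56 in siScr, at passages 47, 54 and 56. No siDicer array reached the lowest siScr array, and the pair differences were -0.35, -0.37 and -0.22. The difference was -0.31 ± 0.06 (SE), with a 95% interval from -0.46 to -0.17, and it missed the threshold with an adjusted p of 0.0816. It passed where fewer probe sets were tested. The adjusted p (limma) was 0.0277 over probe sets with 1 symbol (of which 3.73% passed) and 0.0373 over those above the median level (4.74%). In these 2 fits the pooled variance was also estimated anew, with an SE of 0.0510 and 0.0566 for Timm17a, against 0.0589 over all probe sets. Timm17a also passed, at 0.0362, with an intensity trend and robust estimation of the variances together (1.80%). In each of these 3 fits it was the only one of the 45 genes to pass. Without the pairing its adjusted p was 0.281. Timm10, a chaperone of the space between the membranes, differed by 0.03, Tomm34, a cytosolic co-chaperone of import, by -0.03, and Tomm40l, a relative of the outer membrane channel, by 0.02.

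In all, the groups did not overlap for 5 of the 45 genes, Uqcrh above and Timm17a, Mrpl41, Mrps14 and Cox4i2 below, against 15.9% of all probe sets. In 7 genes siDicer was higher in all 3 pairs, against 17.9% of all probe sets, and in 5 it was lower in all 3, against 22.6%. Either way, 12 genes went 1 way in all 3 pairs, against 40.4%. None of these shares is above the background.

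Most of the 45 genes were ordered alike over the culture passages. The mean over the 45 genes was 7.50 in siScr and 7.56 in siDicer at passage 47, 7.75 and 7.65 at passage 54, and 7.60 and 7.61 at passage 56. Averaged over both groups, 41 of 45 genes were highest at passage 54 and 36 were lowest at passage 47, whereas 38.2% and 42.6% of the 5148 probe sets with 1 symbol above the gauge were. This order was not particular to the 45 genes. Of 44 other genes of mitochondrial function, described below, 33 were highest at passage 54 and 31 lowest at passage 47. Among these 44, the 5 genes of dynamics and biogenesis were all highest at passage 56. Of 9 genes of the cytosolic ribosome, 8 were highest at passage 54 and 9 lowest at passage 47. All 9 complex I subunits were highest at passage 54 and lowest at passage 47. The span of the 3 passage means had a median of 0.18 and exceeded the difference between siDicer and siScr in 40 of the 45 genes, against 73.4% of the 5148. After quantile normalization the median span was 0.12, it exceeded the difference in 31 of 45, against 69.7%, and 34 genes were highest at passage 54 and 27 lowest at passage 47, against 31.7% and 32.1%. Passage and culture cannot be told apart, since each passage is 1 pair of arrays, and no test was made. RNA integrity numbers were 9.7 and 9.8 in the passage 54 arrays and 10.0 in the other 4, and the part of this in the pattern was not tested. Markers of cell types also moved with passage. All 5 melanocyte markers were lowest at passage 54, against 24.7% of the 5148 probe sets, and the sum of their log2 signals was 50.5 there against 51.7 and 51.9 in siDicer, and 50.2 against 50.8 and 51.2 in siScr. Of the fibroblast markers 5 of 6 were lowest at passage 56, against 32.7%. The part of these in the pattern was not tested.

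A single array, siScr at passage 54, held the highest value of 29 of the 45 genes, against 21.9% of the 5148 probe sets, and siScr at passage 47 the lowest of 26, against 24.3%. The first count was 30 after median centring and 28 after quantile normalization. The second moved with the scaling, to 31 and to 15. The standard deviation was larger in siScr than in siDicer in 39 of 45 genes, against 51.7% of the 5148 probe sets, with medians of 0.13 and 0.08.

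**Figure D3:**
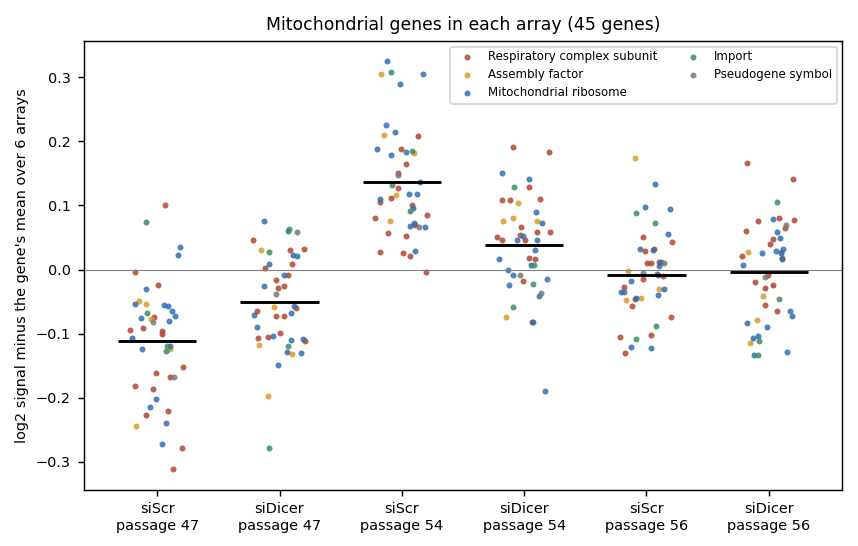
Each point is 1 of the 45 genes in 1 array, plotted as its log2 signal minus its own mean over the 6 arrays and coloured by role, with black bars at the mean of the array. The siScr array of passage 54 lies highest and that of passage 47 lowest, and the siDicer arrays of these passages lie between them.

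The direction of the difference was not the same in every pair. At passage 47 siDicer was higher in 34 of 45 genes with a median of 0.05, at passage 54 in 11 with a median of -0.08, and at passage 56 in 24 with a median of 0.01. Over all probe sets these shares were 47.4%, 48.6% and 44.6%. Scaling moved these counts, to 24, 10 and 20 of 45 after quantile normalization and to 35, 7 and 32 after median centring. Over all 16383 probe sets they became 7821, 7767 and 7708 after quantile normalization and 8610, 7146 and 9173 after median centring. Passage 54 alone kept most of the 45 genes below 0 under each of these scalings, and passage 47 kept more above than below 0. In the deposited values the counts were 14, 7 and 12 of 17 for complex subunits and 12, 3 and 6 of 17 for ribosomal proteins. Subunits of the complexes had the higher median of the classes in each pair, 0.12 against 0.04 at passage 47, -0.03 against -0.15 at passage 54 and 0.04 against -0.01 at passage 56. Without passage 54 ribosomal proteins had 9 of 17 above 0 and a median of 0.0022, and without passage 47 complex subunits had 10 of 17 above 0 and a median of 0.0040. After quantile normalization 10 of 17 complex subunits were above and 15 of 17 ribosomal proteins below 0, and after cyclic loess 10 and 13. The contrast between the classes was not tested.

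**Figure D4:**
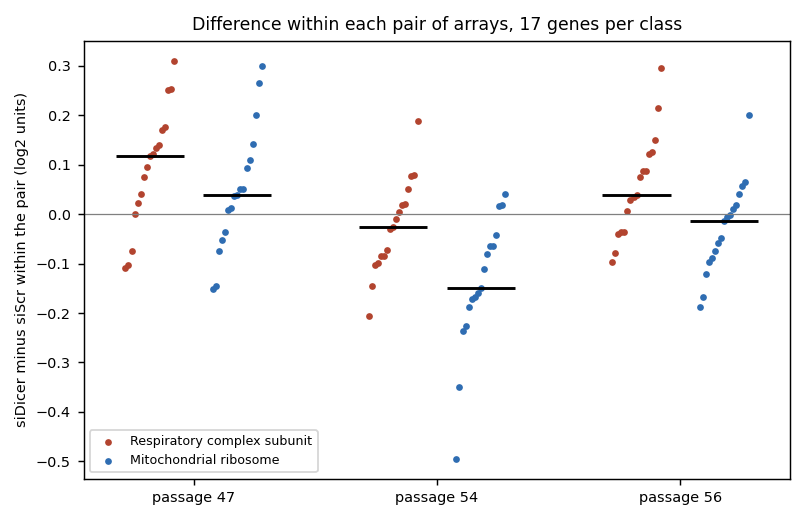
Difference between the siDicer and siScr arrays of each passage in log2 units for 17 complex subunits and 17 ribosomal proteins, 1 point per gene in rising order, with black bars at the medians. Medians of the complex subunits are 0.12, -0.03 and 0.04 and those of the ribosomal proteins 0.04, -0.15 and -0.01.

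The promoters of these genes were searched for letters bound by factors known for respiratory genes: NRF1, GABP of the ETS family, and YY1. Whether the letters go with the order over passages was not tested. RefSeq promoters of 300 bases (GRCm38.p6), from 250 before to 50 after the start, were found for 36 of the 45 genes, and both strands were searched. The ETS letters CCGGAAG were in 11 of 36 genes, against 9.93% of 27025 genes in the table. The NRF1 letters TGCGCATG were in 5 against 2.42%, the YY1 letters AAGATGG in 6 against 7.28%, and TATAAA in 0 against 15.7%. Genes of the table were counted whether or not they lay above the gauge here, whereas all 45 genes did. The median GC content was 59.0% in these promoters and 52.7% over the table. The part of either in the counts was not tested. The following stretches, of 30 bases each and all before the start, show 1 site for genes of different complexes and of the ribosome, with the matched letters in capitals, 5′ to 3′ on the gene's strand.
Uqcrh, reverse complement of the ETS letters, chr4:116075071-116075100, minus strand: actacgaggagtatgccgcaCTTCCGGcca
Atp5e, reverse complement of the ETS letters, chr2:174464185-174464214, minus strand: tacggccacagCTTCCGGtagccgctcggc
Ndufs3, ETS letters, chr2:90904730-90904759, minus strand: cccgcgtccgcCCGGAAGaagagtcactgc
Cox5b, NRF1 letters, chr1:36691424-36691453, plus strand: agaggcagaacTGCGCATGtgcggcgtcta
Ndufaf4, NRF1 letters, chr4:24897958-24897987, plus strand: gcccagatgtcTGCGCATGcgcctgtgcgg
Mrpl9, NRF1 letters, chr3:94443296-94443325, plus strand: agaggcgcagcTGCGCATGcgcggggtcct
Cox20, YY1 letters, chr1:178319067-178319096, plus strand: gaacgctccctAAGATGGccgccgccgcgc

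Uqcrh, with the largest positive difference, holds its ETS letters from position -10, and Timm17a, with the largest negative one, holds the YY1 letters from position 16, after the start, and none of the ETS or NRF1 letters. Genes with ETS letters lay from Uqcrh at 0.24 to Cox20 at -0.13, and those with YY1 letters from Atp5pb at 0.11 to Timm17a at -0.31. A match describes the letters only.

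Of 188 other listed genes of mitochondrial function, 44 were measured. A single one passed, against 0.995% of all probe sets: Tars2, the threonyl-tRNA synthetase of mitochondria, which charges the tRNA used on the mitochondrial ribosome. Its signals were 7.32, 7.40 and 7.41 in siDicer and 6.88, 7.06 and 6.82 in siScr, at passages 47, 54 and 56. The lowest siDicer array was well above the highest siScr array, and Tars2 rose by 0.46 ± 0.07 (SE, adjusted p = 0.0461), or 1.37-fold. Without the pairing its adjusted p was 0.0707, and it also missed the threshold after quantile normalization, after cyclic loess and without any 1 passage. The 44 genes had a median of 0.03, with 27 above 0, and 21 above 0 after quantile normalization.

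The remaining 13 genes of mitochondrial gene expression had 0 past the threshold; Iars2, the isoleucyl-tRNA synthetase, was at 0.14 (adjusted p = 0.329). Over the 44 genes 7 had an unadjusted p under 0.05, or 15.9%, against 15.7% of all probe sets. Among 5 genes of mitochondrial dynamics and biogenesis 0 passed, and 3 of the 7 were there. Mfn1, which fuses outer membranes, was at 7.92, 7.96 and 8.11 in siDicer and at 7.65, 7.77 and 7.73 in siScr, a difference of 0.28 ± 0.06 (SE, adjusted p = 0.112). Its groups did not overlap. Gabpb2 and Gabpb1, subunits that pair with the DNA-binding part of GABP, differed by 0.25 (adjusted p = 0.112) and by -0.17 (adjusted p = 0.222), in opposite directions. Of 11 other measured genes of respiration, mostly for assembly and coenzyme Q, 0 passed. Coq8a, of coenzyme Q synthesis, and Coa5, of complex IV assembly, were at 0.22 and 0.21 (adjusted p = 0.186 and 0.155). Import, processing and quality control genes had 6 of 9 below 0, with the chaperone Hspd1 at -0.13 (adjusted p = 0.331) and the processing peptidase Pmpca at -0.10 (adjusted p = 0.446). The citric acid cycle list had 0 of 5 past the threshold, with fumarase, Fh1, at -0.14 (adjusted p = 0.345) and Pdhx, of the pyruvate dehydrogenase complex, at -0.10 (adjusted p = 0.512).

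For the ribosome of the cytosol, all 9 measured genes lay above 0 (8 of 9 after quantile normalization or cyclic loess and 7 of 9 without passage 47), with a median of 0.06 and 0 past the threshold. For the mitochondrial ribosome 4 of 17 lay above 0, and of all probe sets 44.4%. Rpl37a had the largest difference, 0.17 (adjusted p = 0.322). Both sets were lowest at passage 47 in most genes, 9 of 9 and 13 of 17. The difference between these sets was not tested.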

How the data were processed

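The deposited values are log2 signals per transcript cluster, which, per the submitters' processing notes, the authors obtained from Affymetrix Expression Console. How background and scale were set, and on which genome build, the sources used here do not say. Array medians lay between 4.58 and 4.64. Values were used unchanged, over 16383 probe sets. If arrays were equalised, a shift common to most genes is lost, and differences of dim probe sets are compressed by background. Precision is limited by having 6 arrays.

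The comparison used limma 3.58.1 under R 4.3.3 (lmFit, then eBayes without trend) and took replicate number as a block. Numbers go with passage in the labels, and deviations from group means correlated between same-numbered arrays (r of 0.44, 0.41 and 0.24). Adjusted p under 0.05 was the threshold. The fit was tested on simulated data. Members, roles and gene lists were chosen with earlier results of these data known. Genes were named if they passed, had 1 of the 3 smallest p in their role, or 1 of the 5 largest rises or falls with all pairs 1 way; in other lists, if they passed or had 1 of the 2 smallest p. Cell type markers are named from fixed lists, and Gabpb1 and Slc2a1 were added after their values were seen. Other members are named as part of the account of all. Alternatives covered pairing, scaling, filters, identical rows, weights, variance trend, threshold and each passage left out. Every gene had 1 probe set, so the choice between probe sets was not run.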

Additional observations from a re-analysis of the deposited data

How the results depend on the processing

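Over the alternatives 0 of the 45 genes passed, except that 1, Timm17a, passed over probe sets above the median level, over probe sets with 1 symbol, with an intensity trend and robust variances, and at an adjusted p under 0.1. Over all probe sets the 163 calls became 35 without the replicate block (no pairing), all of them among the 163, and 84 after quantile normalization, 93 after cyclic loess, 388 over probe sets above the median level, 281 over those with 1 symbol, 295 with the trend and robust variances and 378 at an adjusted p under 0.1. Leaving out 1 passage gave 0 to 157 calls, with 0 without passage 54 or 56 (2171 and 1814 at an unadjusted p under 0.05 in limma). The median difference of the 45 genes ran from -0.057 without passage 47 to 0.039 without passage 54. Sign turned in 7 genes after quantile normalization, 5 after cyclic loess, 2 after centring and 3 to 10 when a passage was left out. No gene of the 45 with a difference of at least 0.1 turned in sign under any of the 12 refits: Timm17a stayed between -0.36 and -0.29 (adjusted p from 0.0277 to 0.281) and Uqcrh between 0.20 and 0.26 (0.0551 to 0.410). The difference itself cannot change without the pairing, with fewer probe sets tested, without identical rows or with the trend and robust variances. Only the refits by scaling, by array weights and without 1 passage could turn a sign. Tars2 stayed between 0.39 and 0.52 (0.0149 to 0.185) and lost its call in 6. Without the pairing Tars2 and Mreg lost their calls, and no other gene named here did. Causes of these shifts were not tested.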

Other observations

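Genes of glucose use, the other main route to ATP, were measured in 3 cases and 0 passed. Slc16a1, which carries lactate and pyruvate across the cell membrane, was at 8.67, 8.61 and 8.73 in siDicer and at 8.47, 8.50 and 8.48 in siScr, at passages 47, 54 and 56. Its groups did not overlap, and the difference of 0.19 ± 0.06 (SE) had an adjusted p of 0.215 in limma. Pfkfb3, which makes the activator of phosphofructokinase, differed by 0.16 (adjusted p = 0.283), and the glucose transporter Slc2a1 by -0.10 (adjusted p = 0.459).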
